A study of Mus musculus with 35 samples.

Results

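Potassium channels set the resting potential of neurons and end each action potential. A channel is built from pore-forming subunits, and in many channels auxiliary subunits change its gating or its transport to the membrane. In the striatum, medium spiny neurons, the main projection neurons, are held at a strongly negative potential by inward rectifier channels, and A-type and other voltage-gated channels shape the moment at which they fire. The genes considered here were all those listed with a symbol that starts with Kcn and with a mean of at least 0.5 CPM over 35 mice, where CPM, the depth-scaled count, was taken for this rule on each library's total count. The rule kept 74 of 87 such genes, out of 22099 genes listed, and all 74 also passed the filter on low counts used for testing. The members just inside the rule were *Kcnk12* at 0.51 CPM, *Kcnh8* at 0.56 and *Kcnk4* at 0.61, and the nearest genes outside it were *Kcne2* at 0.44 CPM, *Kcnrg* at 0.28 and *Kcnn4* at 0.27.

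RNA was sequenced from the hemistriatum of 35 female C57BL6/J mice aged 299 to 304 days, with 1 library per mouse. The tissue was from the right side except in 1 *Htt*+/+ mouse on *Htt* ASO, where it was from the left. *Htt*Q111/+ mice carry an expanded CAG repeat knocked into 1 copy of Htt, the Huntington's disease gene, in every cell, and *Htt*+/+ mice were their wild-type littermates. *Htt*+/+ mice received saline (n = 6), a control antisense oligonucleotide that matches no mouse sequence (control ASO, n = 5) or an oligonucleotide against both copies of Htt (*Htt* ASO, n = 6), and *Htt*Q111/+ mice received the same treatments (n = 6 each). Injections into the abdomen were weekly between 2 and 10 months of age. The dose was 50 mg/kg for either ASO, and saline was given in a volume of 4 µL/g.

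Totals ran from 32200158 to 38641924 counts across the 35 libraries, and the 74 members made up 0.35% to 0.40%. The targeted transcript, listed as *Hdh*, spanned 60.9 to 83.6 CPM (median 72.0) in *Htt*Q111/+ mice on *Htt* ASO and 65.3 to 88.1 (median 73.5) on control ASO, and their difference had an adjusted p of 0.999 (limma). The striatal identity of the tissue was visible in its markers: 9 medium spiny neuron genes summed to 6357 to 7489 CPM in *Htt*+/+ mice. The same 9 genes summed to 4506 to 5294 CPM in *Htt*Q111/+ mice, 8 of them fell and *Tac1* rose, and the part of this shift in the channel results was not tested. In bulk tissue, fewer cells of a type and less RNA per cell cannot be told apart. Libraries were spread over 6 sequencing lanes, taken from the titles, where a number after an L was read as the lane, and the 6 mice of lane 7 were all *Htt*Q111/+.

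The members were placed in 11 subfamilies by name, and some name groups were pooled. Shaker-type voltage-gated subunits were *Kcna1*, *Kcna2*, *Kcna3*, *Kcna4*, *Kcna5* and *Kcna6*, and other voltage-gated pore subunits included *Kcnb2*, *Kcnc1*, *Kcnc2*, *Kcnc4*, *Kcnd1*, *Kcnd2* and *Kcnd3*. The ether-a-go-go family comprised *Kcnh1*, *Kcnh2*, *Kcnh3*, *Kcnh5*, *Kcnh6*, *Kcnh7* and *Kcnh8*, and the Kcnq family included *Kcnq3* and *Kcnq5*. Modifier subunits, which form no channel on their own and change the channels they join, were *Kcnf1*, *Kcng1*, *Kcng4*, *Kcns1*, *Kcns2*, *Kcns3* and *Kcnv1*. The group labelled calcium- or sodium-activated channels held *Kcnma1*, *Kcnn1*, *Kcnn2*, *Kcnn3*, *Kcnt1* and *Kcnt2*, and *Kcnu1* was pooled with them without regard to its gating. Inward rectifiers were *Kcnj2*, *Kcnj3*, *Kcnj4*, *Kcnj5*, *Kcnj6*, *Kcnj8*, *Kcnj9*, *Kcnj10*, *Kcnj11*, *Kcnj12*, *Kcnj14* and *Kcnj16*, and leak channels with tandem pores were *Kcnk1*, *Kcnk2*, *Kcnk3*, *Kcnk4*, *Kcnk5*, *Kcnk6*, *Kcnk9*, *Kcnk10*, *Kcnk12* and *Kcnk13*. Auxiliary subunits were *Kcnab1*, *Kcnab2*, *Kcnab3*, *Kcne1l*, *Kcne4*, *Kcnip1*, *Kcnip2*, *Kcnip3*, *Kcnip4*, *Kcnmb1*, *Kcnmb2* and *Kcnmb4*.

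Transcript levels spanned several orders of magnitude. From here on, CPM are on library sizes scaled by TMM, and a level per kilobase is the mean CPM over all 35 mice divided by the length of the longest GENCODE M21 transcript, which was known for all 74 members. On this level per kilobase *Kcnab1*, an auxiliary subunit that binds Shaker-type channels and speeds their inactivation, was highest at 102.9 CPM per kilobase. The inward rectifier *Kcnj4* followed at 72.0, then *Kcna1*, a Shaker-type channel of axons, at 71.98, the auxiliary *Kcnab2* at 67.3 and the astrocytic inward rectifier *Kcnj10* at 43.8. The highest level per kilobase was that of *Kcnk1* among the tandem-pore channels (40.9), *Kcnh3* among the ether-a-go-go genes (40.6) and *Kcnd2*, which carries A-type current in dendrites, among the Kcnd genes (39.3). It was that of *Kcnf1* among the modifiers (18.6), *Kcnc1* among the Kcnc genes (17.4) and the sodium-activated *Kcnt1* among the calcium- or sodium-activated channels (11.8).

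Genotype shifted the channel genes mostly downward. Averaged over the 3 treatments, 35 of 74 members (47.3%) passed the test of *Htt*Q111/+ against *Htt*+/+ mice at an adjusted p of 0.05, where 39.8% of all 17639 tested genes did (limma after voom, Benjamini-Hochberg adjustment over all tested genes). Of the members 25 (33.8%) were lower in *Htt*Q111/+ mice, against 18.0% of all tested genes, and 10 (13.5%) were higher, against 21.8%. All tested genes include genes under the members' minimum of 0.5 CPM, so these shares are not matched for expression level. With a filter at a mean of 1 CPM, 6798 of 15093 genes were called, 3632 of them higher. That fit called 35 members, 26 lower and 9 higher. The median log2 fold change of the 74 members was −0.091, and that of all tested genes was 0.0037. With library totals in place of TMM, 33 members were called, 20 lower and 13 higher, while the all-gene median moved up by 0.039 and 5830 of 8089 called genes were higher, against 3842 of 7024 with TMM. The changes were modest in size: the median absolute log2 fold change was 0.25 among the called members and 0.15 among all called genes, and 4 called members reached 0.5 in either direction.

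**Figure D1:**
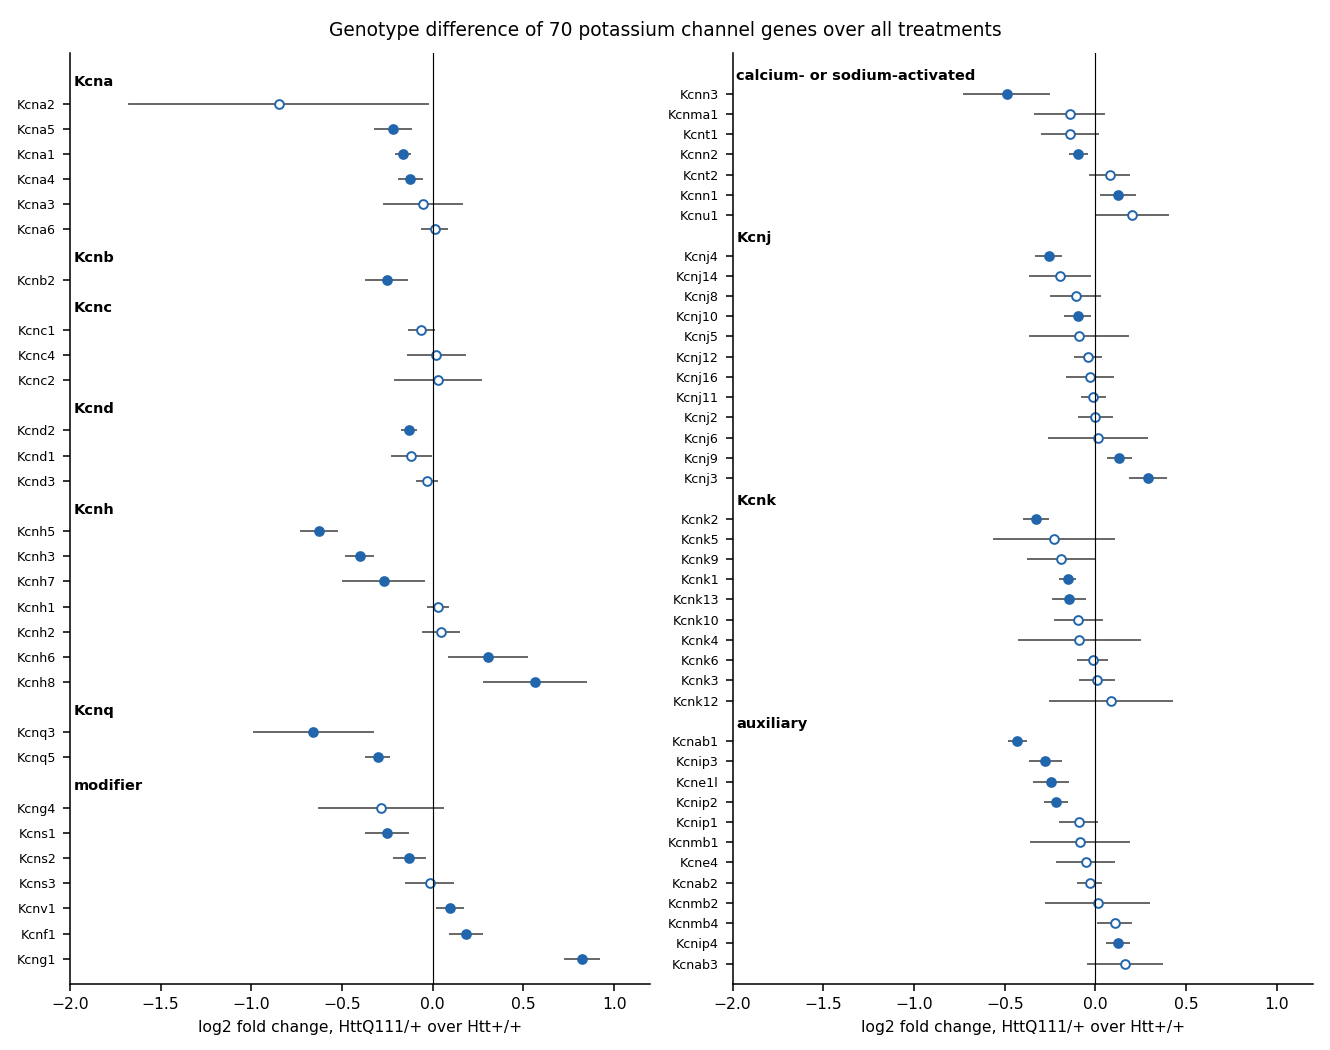
Log2 fold change of *Htt*Q111/+ over *Htt*+/+ mice for each of 70 potassium channel genes, averaged over treatments, with 95% confidence intervals (lines) and genes with an adjusted p under 0.05 filled. Filled points lie left of zero for 23 genes and right of it for 9, *Kcng1* is farthest to the right at 0.82, and *Kcna2* has the widest interval.

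Called members were also counted by subfamily, where 39.8% of all tested genes were called. Of the Kcnh genes 5 of 7 were called, as were 5 of 7 modifiers. Lower shares were those of Kcna with 3 of 6, auxiliary subunits with 5 of 12, calcium- or sodium-activated channels with 3 of 7, Kcnj with 4 of 12, Kcnd with 1 of 3 and Kcnk with 3 of 10. Every called Kcna, Kcnd and Kcnk gene was lower in *Htt*Q111/+ mice, while the called Kcnh, Kcnj, modifier, auxiliary and calcium- or sodium-activated genes went both ways. In these 8 subfamilies the median log2 fold change ran from −0.14 for Kcna to 0.030 for Kcnh. These counts describe small lists, and those near the share of all tested genes are not a result about the subfamily. Whether one subfamily changed more often than another was not tested.

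The 4 members whose values did not overlap between genotypes are described first, since across all tested genes 2.2% had non-overlapping ranges and among the members 5.41% did. *Kcnab1* spanned 473.3 to 579.8 CPM (median 521.4) in 17 *Htt*+/+ mice and 349.8 to 422.3 CPM (median 387.1) in 18 *Htt*Q111/+ mice. Each *Htt*Q111/+ mouse lay below every *Htt*+/+ mouse, and the log2 fold change was −0.43 (SE 0.023, limma adjusted p = 1.133e-16), or 74.1% of the wild-type level. On control ASO the 5 *Htt*+/+ mice had 493.7, 495.1, 498.4, 528.1 and 538.9 CPM, and the 6 *Htt*Q111/+ mice 367.1 to 422.3 CPM (median 389.7). In the 5 lanes that held both genotypes the log2 difference ran from −0.49 to −0.33.

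*Kcnh5* and *Kcnh3* encode ether-a-go-go type subunits that open at voltages near or above rest. *Kcnh5* spanned 6.05 to 8.33 CPM (median 7.08) in *Htt*+/+ mice and 3.51 to 5.40 (median 4.76) in *Htt*Q111/+ mice (log2 fold change −0.63, SE 0.049, adjusted p = 1.589e-12). *Kcnh3* spanned 147.0 to 205.9 CPM (median 167.6) in *Htt*+/+ mice and 119.0 to 142.7 (median 130.2) in *Htt*Q111/+ mice (log2 fold change −0.40, SE 0.037, adjusted p = 7.384e-11). Of the 35 called members 28 had the same direction in all 5 lanes, and *Kcna4*, *Kcna5*, *Kcnb2*, *Kcnh7*, *Kcnn1*, *Kcnn2* and *Kcns2* did so in 4 of 5. The lanes hold mice that also gave the calls, so this agreement is not independent of them, and no share over all called genes is given. *Kcnh5* and *Kcnh3* fell in each lane, *Kcnh5* by −0.74 to −0.47 and *Kcnh3* by −0.54 to −0.30. The remaining one went the other way. *Kcng1*, a silent modifier that joins other voltage-gated subunits, spanned 11.7 to 18.6 CPM (median 15.02) in *Htt*+/+ mice and 22.0 to 30.7 (median 27.2) in *Htt*Q111/+ mice. Every *Htt*Q111/+ mouse exceeded every *Htt*+/+ mouse, a 1.77-fold difference (log2 fold change 0.82, SE 0.047, adjusted p = 5.947e-16), and the lanes gave 0.69 to 0.98.

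**Figure D2:**
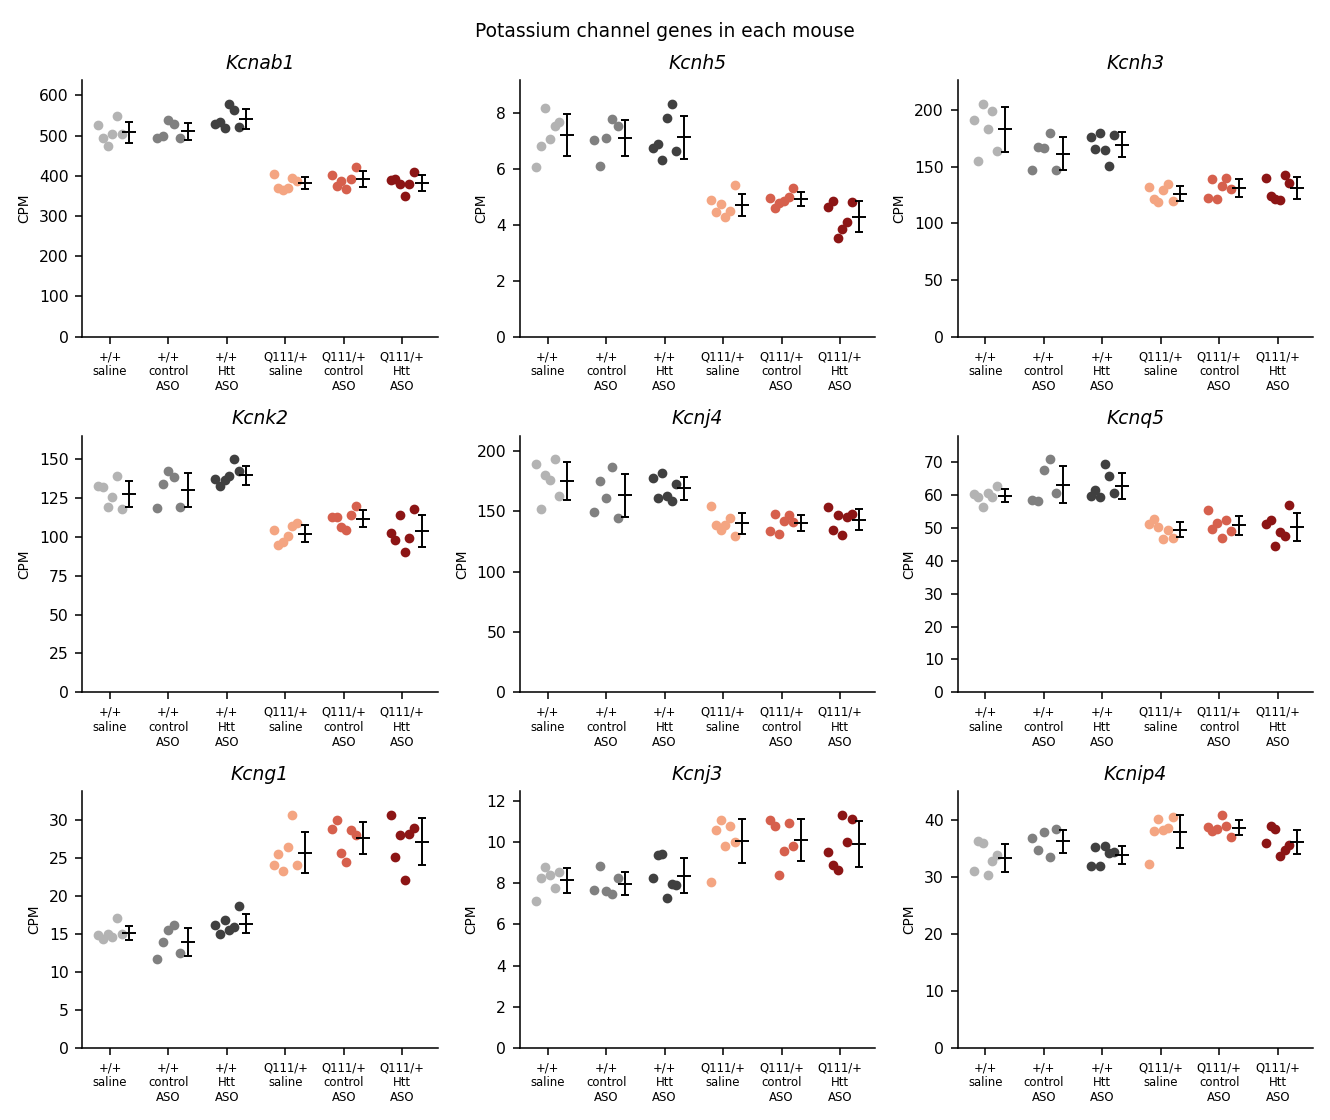
CPM of 9 members in each mouse by genotype and treatment, with the mean and SD of each group beside the points (n = 6, except 5 *Htt*+/+ mice on control ASO). Pooled over treatments, *Kcnab1*, *Kcnh5* and *Kcnh3* separate the genotypes downward and *Kcng1* upward, whereas the pooled ranges overlap for *Kcnk2*, *Kcnj4*, *Kcnq5*, *Kcnj3* and *Kcnip4*. Within each single treatment *Kcnq5* also separates the genotypes.

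Among the other Kcnh genes the voltage-gated *Kcnh8* and *Kcnh6* rose. *Kcnh8* had 0.26 to 0.65 CPM (median 0.44) in *Htt*+/+ and 0.35 to 1.22 (median 0.61) in *Htt*Q111/+ mice (log2 fold change 0.56, SE 0.14, adjusted p = 0.0014), and is a gene of very few reads that the rule includes narrowly. *Kcnh6* had a log2 fold change of 0.30 (SE 0.11, adjusted p = 0.021). *Kcnh6* was no longer called with lane as a covariate. *Kcnh1* and *Kcnh2* did not pass the test. *Kcnh7* was called at an adjusted p of 0.048, and its exons overlap those of *Gca* on the other strand.

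*Kcnq5* and *Kcnq3* encode subunits of the M-current, a slow non-inactivating current that damps repetitive firing, and both fell. *Kcnq5* had 56.4 to 71.0 CPM (median 60.6) in *Htt*+/+ and 44.6 to 56.9 (median 50.1) in *Htt*Q111/+ mice, a log2 fold change of −0.30 (SE 0.031, adjusted p = 7.398e-10). The ranges met over less than 1 CPM. *Kcnq3* had 11.2 to 29.4 CPM (median 22.0) and 7.85 to 22.5 (median 12.0), a log2 fold change of −0.66 (SE 0.16, adjusted p = 0.0013). Its spread between mice was wide, and with a measure of long-transcript signal as a covariate, described further on, its log2 fold change was −0.32.

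The Shaker-type genes that passed the test all fell by small amounts. *Kcna1* had 287.3 to 326.4 CPM (median 305.5) in *Htt*+/+ and 259.6 to 299.8 (median 271.8) in *Htt*Q111/+ mice, a log2 fold change of −0.17 (SE 0.019, adjusted p = 1.19e-08). It had the smallest spread within groups of all 74 members, an SD of 0.056 on the log2 scale. *Kcna5* fell by 0.22 (SE 0.049, adjusted p = 5.205e-04) and *Kcna4*, an A-type subunit, fell by 0.12 (SE 0.031, adjusted p = 0.0018), both on the log2 scale. *Kcna3* and *Kcna6* did not pass the test, and the log2 fold change of *Kcna6* had a 95% confidence interval of −0.058 to 0.078. *Kcna1*, *Kcna5* and *Kcna6* lie within the same stretch of chromosome 6 (GRCm38), with 104984 bases between *Kcna5* and *Kcna1* and 61944 bases between *Kcna1* and *Kcna6*.

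*Kcnab1*, which pairs with these channels, fell by more than any of the called Kcna genes on the log2 scale, while the related *Kcnab2* gave −0.032 (95% confidence interval −0.094 to 0.031, adjusted p = 0.45). Differences between members were not tested, and with the long-transcript covariate *Kcnab2* was called (−0.072, adjusted p = 0.031). Auxiliary subunits of the A-type Kcnd channels were also called in both directions. *Kcnip2* had 98.5 to 119.5 CPM (median 113.5) in *Htt*+/+ and 86.8 to 106.9 (median 94.4) in *Htt*Q111/+ mice, a log2 fold change of −0.22 (SE 0.030, adjusted p = 4.009e-07). *Kcnip3*, a calcium-binding protein also known as a transcriptional repressor, gave −0.28 (SE 0.042, adjusted p = 1.96e-06). *Kcnip4* had 30.4 to 38.4 CPM (median 34.5) and 32.4 to 41.0 (median 38.4), and rose by 0.13 on the log2 scale (SE 0.029, adjusted p = 7.495e-04). The pore subunit *Kcnd2* had 192.8 to 228.2 CPM (median 211.6) in *Htt*+/+ and 183.1 to 207.3 (median 189.9) in *Htt*Q111/+ mice, a log2 fold change of −0.13 (SE 0.019, adjusted p = 9.535e-07), and *Kcnd3* gave −0.033 (adjusted p = 0.35). *Kcne1l*, an auxiliary subunit of the Kcne type, was the remaining called member of its subfamily and was lower.

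Of 12 inward rectifiers 2 fell and 2 rose. *Kcnj4*, a classical strong rectifier of forebrain neurons, had 144.5 to 193.2 CPM (median 172.6) in *Htt*+/+ and 129.3 to 154.0 (median 141.3) in *Htt*Q111/+ mice, a log2 fold change of −0.26 (SE 0.034, adjusted p = 1.907e-07). *Kcnj2*, a strong rectifier of the same class, had 48.6 to 68.3 CPM (median 56.9) and 47.7 to 67.6 (median 57.1), and its log2 fold change of −0.0021 had a 95% confidence interval of −0.093 to 0.089. Of the G-protein-gated rectifiers, opened by inhibitory receptors, *Kcnj3* and *Kcnj9* rose. *Kcnj3* had 7.12 to 9.39 CPM (median 8.23) in *Htt*+/+ and 8.05 to 11.3 (median 9.99) in *Htt*Q111/+ mice, a log2 fold change of 0.29 (SE 0.049, adjusted p = 9.796e-06). *Kcnj9* gave 0.13 (SE 0.031, adjusted p = 9.588e-04). *Kcnj6*, another subunit of these channels with about 1 CPM, gave 0.014 with an interval of −0.26 to 0.28, too wide to tell, and *Kcnj5*, also of this type, gave −0.092 (adjusted p = 0.62). The glial *Kcnj10* fell by 0.099 on the log2 scale (SE 0.034, adjusted p = 0.018), while its partner *Kcnj16* gave −0.029 (adjusted p = 0.75). Of 10 astrocyte marker genes 3 were lower and 1 was higher, and their part in the *Kcnj10* result was not tested. *Kcnj11*, the pore of ATP-sensitive channels, gave −0.012 (95% confidence interval −0.077 to 0.053).

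Leak channels that passed the test all fell. *Kcnk2*, a mechanically and lipid-gated leak channel, had 118.1 to 150.0 CPM (median 134.0) in *Htt*+/+ and 90.1 to 119.7 (median 105.3) in *Htt*Q111/+ mice, a log2 fold change of −0.33 (SE 0.032, adjusted p = 3.881e-10). Only the upper end of the *Htt*Q111/+ values reached the lower end of the *Htt*+/+ values. *Kcnk1* had 89.1 to 101.8 CPM (median 97.3) and 78.5 to 96.3 (median 86.1), a log2 fold change of −0.15 (SE 0.020, adjusted p = 1.601e-07), and *Kcnk13* was also lower (−0.15, SE 0.043, adjusted p = 0.0064). *Kcnk3*, an acid-sensitive leak channel, gave 0.0078 with a 95% confidence interval of −0.086 to 0.10.

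Modifier and calcium-activated genes completed the picture. *Kcnf1* had 62.3 to 96.8 CPM (median 84.5) in *Htt*+/+ and 78.8 to 106.6 (median 94.5) in *Htt*Q111/+ mice, a log2 fold change of 0.18 (SE 0.043, adjusted p = 6.768e-04). *Kcnv1* gave 0.097 (SE 0.036, adjusted p = 0.030), and *Kcns1* and *Kcns2* were lower. The small-conductance calcium-activated channels, which follow bursts with a lasting hyperpolarization, went both ways: *Kcnn3* gave −0.49 (SE 0.12, adjusted p = 8.68e-04; −0.25 with the same covariate), *Kcnn2* −0.094 (SE 0.024, adjusted p = 0.0017) and *Kcnn1* 0.12 (SE 0.047, adjusted p = 0.034). The large-conductance *Kcnma1* gave −0.14 (SE 0.094, adjusted p = 0.24). *Kcnb2*, a delayed rectifier, was lower (−0.25, SE 0.055, adjusted p = 3.366e-04). Of the 35 calls 31 held whichever of the 35 mice was left out. Among the rest, *Kcnn1* was lost without any of 12 single mice (adjusted p up to 0.070), *Kcnv1* without any of 5 (up to 0.067) and *Kcnh7* without any of 22 (up to 0.082). With library totals in place of TMM the calls lost included *Kcnh7*, *Kcnj10*, *Kcnn2* and *Kcns2*. With lane as a covariate those of *Kcnh6*, *Kcnh7*, *Kcnn1*, *Kcnn2* and *Kcns2* were lost. Without the mice of lane 7 the lost calls included *Kcnh7*, *Kcnj10*, *Kcnn1*, *Kcnn2* and *Kcns2*, and with the long-transcript covariate they included *Kcnh7* and *Kcnn1*.

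The promoters of 4 called members are shown as the sequences at the starts of the genes that moved most: the pair with the largest decreases and the pair with the largest increases among called members with 1 start in RefSeq (GRCm38.p6). Each is the 120 bases before the start, read 5′ to 3′ on the gene's strand, and capitals mark GGGCGG or its reverse complement, the core of a GC box.
*Kcnh5* (chr12:75177333-75177452, minus strand): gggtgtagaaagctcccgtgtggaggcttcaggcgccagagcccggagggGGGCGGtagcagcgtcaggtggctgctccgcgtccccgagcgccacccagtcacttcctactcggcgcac
*Kcnn3* (chr3:89520044-89520163, plus strand): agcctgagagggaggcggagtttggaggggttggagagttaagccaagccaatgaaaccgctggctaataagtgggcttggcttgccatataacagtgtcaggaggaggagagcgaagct
*Kcnh8* (chr17:52602589-52602708, plus strand): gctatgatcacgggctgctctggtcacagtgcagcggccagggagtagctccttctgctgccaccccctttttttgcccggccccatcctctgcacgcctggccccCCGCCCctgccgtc
*Kcnh6* (chr11:106008028-106008147, plus strand): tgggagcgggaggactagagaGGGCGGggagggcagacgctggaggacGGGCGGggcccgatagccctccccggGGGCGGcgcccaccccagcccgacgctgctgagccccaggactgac
Promoters of 53 members were matched. GGGCGG lay on either strand of the window from 250 bases before to 50 after a start in 36 of the 53 members (67.9%) and in 38.2% of all 27025 genes, and per start in 50.0% of the 76 starts of members and 35.7% of all starts. The motif was present in 12 of 17 members called lower and in 4 of 7 called higher, a description from which nothing follows about binding.

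The genotype differences were next compared between treatments, since these 3 comparisons share no mice. On saline 19 members were called, 15 lower (20.3%) and 4 higher (5.41%), against 17.4% of all tested genes called, 8.78% lower and 8.67% higher. On control ASO 16 members were called, 12 lower (16.2%) and 4 higher, against 18.5% of tested genes, 8.46% lower and 10.1% higher. On *Htt* ASO 20 members were called, 16 lower (21.6%) and 4 higher, against 21.2% of tested genes, 10.2% lower and 10.9% higher. Under all 3 treatments 11 members were called, 9 lower (among them *Kcna1*, *Kcnab1*, *Kcnh3*, *Kcnh5*, *Kcnip2*, *Kcnj4*, *Kcnk2* and *Kcnq5*) and 2 higher (*Kcng1* and *Kcnj3*). The share of all tested genes called under all 3 is not given here, so this count is a list and not a trait of the channels. The genotype difference had the same sign under the 3 treatments in 51 members (68.9%), against 59.5% of all tested genes. Across the 74 members, which are not independent of each other, the log2 fold changes on saline correlated with those on control ASO (r = 0.744) and on *Htt* ASO (r = 0.689). Across all tested genes these were 0.385 and 0.41. All tested genes include genes under the members' minimum of 0.5 CPM, so neither the share with 1 sign nor r is matched for expression level.

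**Figure D3:**
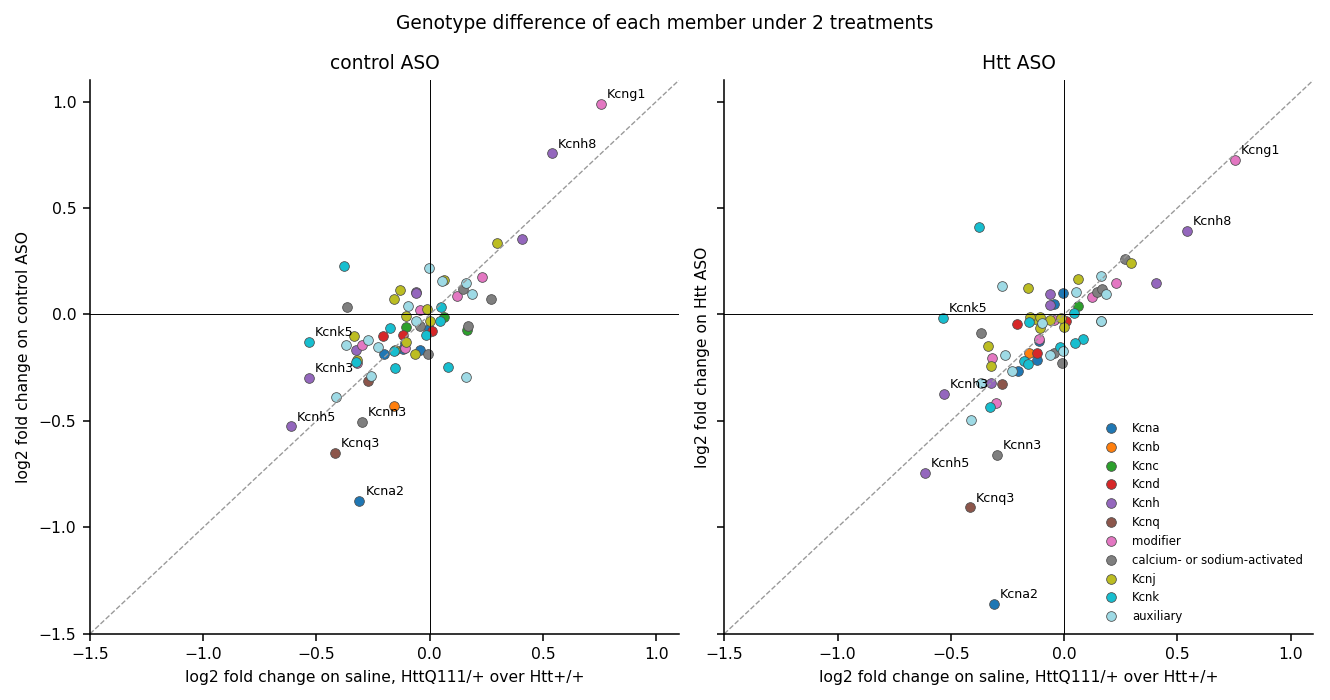
Genotype log2 fold change of each of 70 members on saline (horizontal axis) against that on control ASO (left) and on *Htt* ASO (right), coloured by subfamily, with a dashed line where both are equal. *Kcng1* and *Kcnh8* lie in the upper right of both panels and *Kcnh5*, *Kcnh3* and *Kcnq3* in the lower left, while *Kcna2* lies far below the line.

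For single members the levels under the 3 treatments were close. In *Htt*Q111/+ mice *Kcnab1* spanned 365.8 to 403.5 CPM (median 378.6) on saline and 349.8 to 410.1 (median 384.3) on *Htt* ASO, and its log2 difference between the ASOs was −0.030 (95% confidence interval −0.11 to 0.050). *Kcng1* spanned 23.3 to 30.7 CPM (median 24.8) on saline, 24.5 to 29.9 (median 28.3) on control ASO and 22.0 to 30.6 (median 28.1) on *Htt* ASO, with a difference of −0.030 (95% confidence interval −0.17 to 0.11) between the ASOs. *Kcnh5* was the lowest on *Htt* ASO, at 3.51 to 4.83 CPM (median 4.36) against 4.58 to 5.33 (median 4.91) on control ASO, a log2 difference of −0.21 (95% confidence interval −0.40 to −0.028) with an adjusted p of 0.64. That change did not pass the test and pointed away from the *Htt*+/+ level.

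No treatment comparison called a member. *Htt* ASO against control ASO, averaged over genotype, called 0 of 74 members against 0.935% of all tested genes, with 1 member at an unadjusted p under 0.05. *Htt* ASO against saline called 0 against 1.47%, with 2 members at an unadjusted p under 0.05, and control ASO against saline 0 against 0%, with 3. Within *Htt*Q111/+ mice *Htt* ASO called 0 members against control ASO (0.357% of all tested genes) and 0 against saline (0.556%), and within *Htt*+/+ mice 0 and 0 (0.295% and 0.726%). At an unadjusted p under 0.05 these 4 comparisons had 4, 2, 2 and 5 members. Control ASO against saline called 0 members in *Htt*Q111/+ mice (0% of tested genes, 1 member at an unadjusted p under 0.05) and 0 in *Htt*+/+ mice (0%, 9 members). The test of any genotype by treatment interaction also called 0 members (0% of tested genes), with 6 at an unadjusted p under 0.05. These counts came from limma after voom, and edgeR's quasi-likelihood test and DESeq2 also called 0 members in each. Comparisons with the same ASO or saline mice share those mice.

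The precision of these zeros varied by gene. For *Htt* ASO against control ASO, the 95% confidence interval lay within 0.5 on either side of zero on the log2 scale for 67 of 74 members, and the members beyond it were *Kcna2*, *Kcnh6*, *Kcnj5*, *Kcnk12*, *Kcnk4*, *Kcnk5* and *Kcnmb2*. The smallest p in that comparison was that of *Kcnip4*, which had 33.5 to 41.0 CPM (median 38.2) on control ASO and 31.9 to 39.0 (median 35.0) on *Htt* ASO, a log2 difference of −0.096 (SE 0.036, adjusted p = 0.45). *Kcna5* (−0.12, adjusted p = 0.78) and *Kcnd3* (−0.065, adjusted p = 0.82) came next.

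Against saline the smallest p belonged to *Kcnk6*, a tandem-pore leak channel, with 5.70 to 8.07 CPM (median 7.05) on saline and 5.67 to 7.03 (median 6.44) on *Htt* ASO, a log2 difference of −0.12 (SE 0.048, adjusted p = 0.35). With lane as a covariate *Kcnk6* was called in *Htt*Q111/+ mice (adjusted p = 0.043), with a log2 difference of −0.28. No other member was called for a treatment under the alternatives tried. *Kcnf1* (0.12, adjusted p = 0.46) and *Kcna5* (−0.12, adjusted p = 0.56) followed. For control ASO against saline these were *Kcnmb2* (−0.45, SE 0.17, adjusted p = 0.60), a gene of about 1 CPM, *Kcna1* (0.054, adjusted p = 0.61) and *Kcnip4* (0.075, adjusted p = 0.64). For the interaction they were *Kcnk1*, *Kcnj11* and *Kcnn2*, each with an adjusted p of 0.88.

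**Figure D4:**
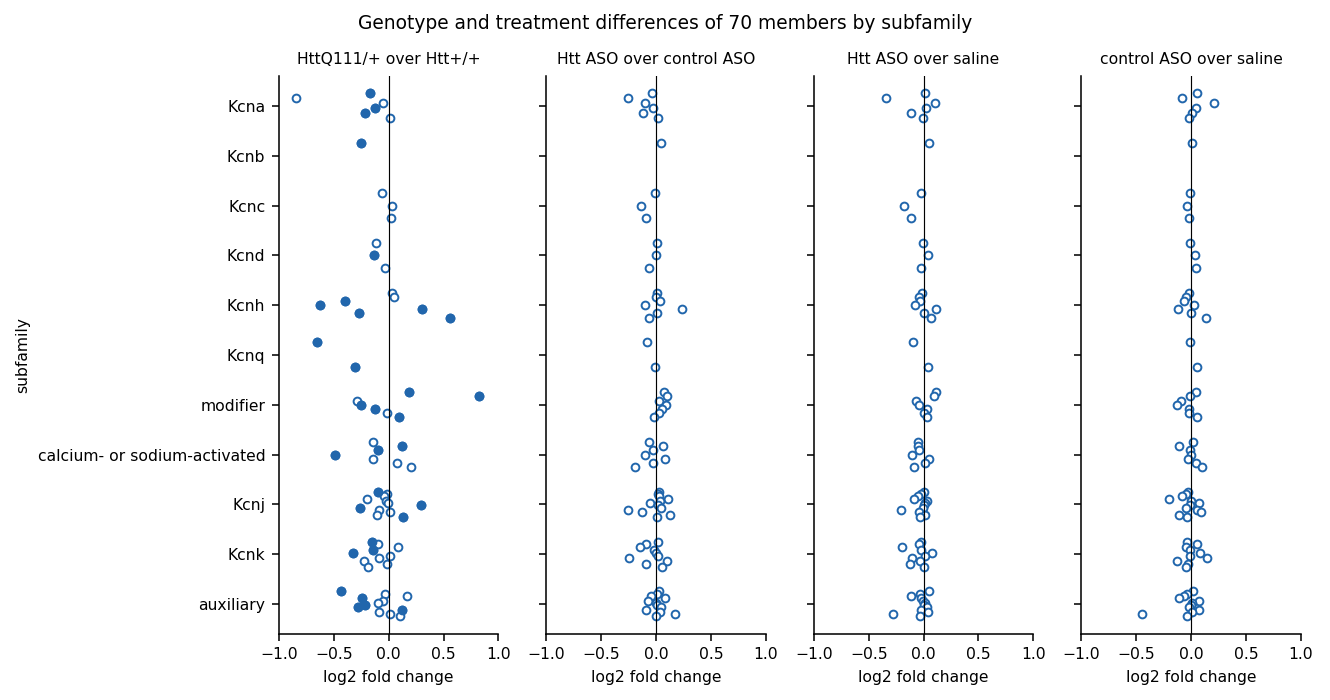
Log2 fold changes of 70 members by subfamily for genotype and for the 3 treatment comparisons averaged over genotype, with genes at an adjusted p under 0.05 filled. The genotype panel holds 32 filled points and spreads from −0.85 to 0.82, while the treatment panels hold none and spread from −0.45 to 0.24.

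Summed over members, auxiliary subunits were highest by median in each of the 6 groups, followed by Kcnj and then Kcna. Auxiliary subunits summed to medians of 1116, 1082 and 1131 CPM in *Htt*+/+ mice on saline, control ASO and *Htt* ASO and to 935.8, 955.8 and 945.9 CPM in *Htt*Q111/+ mice. All 18 *Htt*Q111/+ mice (863.3 to 979.6 CPM) lay below all 17 *Htt*+/+ mice (1050 to 1205 CPM). Most of that gap was *Kcnab1*, which alone went from a mean of 520.5 to 385.4 CPM, and 7 of the 12 auxiliary members did not pass the test. Kcnk sums also did not overlap, at 245.3 to 281.6 CPM in *Htt*+/+ and 207.4 to 242.1 in *Htt*Q111/+ mice. Here *Kcnk2* alone went from a mean of 132.7 to 105.7 CPM, and 7 of the 10 Kcnk members did not pass the test. Kcnj sums overlapped, at 528.2 to 623.7 CPM (median 576.0) and 504.6 to 556.6 (median 536.9). Kcna sums were 503.2 to 555.8 CPM (median 530.8) and 456.1 to 521.0 (median 474.9). Modifier sums had a higher median in *Htt*Q111/+ mice, at 237.7 against 217.2 CPM.

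Some members varied more between mice of the same group than between genotypes. *Kcna2*, a Shaker-type channel, ranged from 1.82 to 27.4 CPM (median 15.2) among *Htt*+/+ mice and from 1.98 to 22.0 (median 7.40) among *Htt*Q111/+ mice, and each of the 6 groups held mice both under 5 and above 16 CPM. Its log2 fold change of −0.85 (SE 0.40, adjusted p = 0.094) did not pass the test; without the *Htt*+/+ *Htt* ASO mouse sampled on the left side it was −0.98 (adjusted p = 0.040), with lane as a covariate −1.27 (adjusted p = 0.020), and without 1 *Htt*+/+ saline mouse −1.03 (adjusted p = 0.025). *Kcnq3*, *Kcnn3*, *Kcnma1* and *Kcna3* rose and fell with it. All of these moved with a long-transcript index of each mouse, the mean log2 CPM of the 925 genes with the longest transcripts (7111 bases or more, from 9244 genes, with Kcn genes left out) minus the mean of all 9244. This relation and those with marker lists below were chosen after seeing the data.

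After subtraction of group means, *Kcna2* correlated with the index over 35 mice with r = 0.90 and rho = 0.91 (permutation test with 100000 resamples within groups, two-sided, p = 1e-05 for each, the smallest these resamples can give; adjusted p = 2.02e-04 for r and 1.71e-04 for rho over 222 relations). Without the 2 mice farthest from the median index r was 0.87, and with lane means also removed it was 0.92. For *Kcnn3*, *Kcnma1*, *Kcnq3* and *Kcna3* r was 0.94, 0.93, 0.88 and 0.80, and for *Kcnt1* it was −0.85. The longest transcripts of *Kcna2*, *Kcnn3*, *Kcnma1* and *Kcnq3* have 11582, 8314, 12094 and 11824 bases, but that of *Kcna3* has 1902. Other long members followed the index less: r was 0.18 for *Kcnb2* (14845 bases), 0.31 for *Kcnk9* (12300) and 0.55 for *Kcnh7* (13321). The part of a member's own length in its relation was not tested. The index spanned 0.33 to 0.61 (median 0.55) in *Htt*+/+ mice and 0.33 to 0.60 (median 0.49) in *Htt*Q111/+ mice. With the index as a covariate, an alternative also added after seeing the data, the genotype difference became 0.014 for *Kcna2*, −0.32 for *Kcnq3* (adjusted p = 0.0037) and −0.25 for *Kcnn3* (adjusted p = 5.498e-05). In the same fit *Kcnt1* was called (−0.29, adjusted p = 1.329e-06), and *Kcnab1* (−0.43), *Kcnh5* (−0.59), *Kcnh3* (−0.45) and *Kcng1* (0.77) were called as before. It also gained *Kcnab2* (−0.072, adjusted p = 0.031), *Kcnj14* and *Kcnj8*. The calls it lost included *Kcnh7* and *Kcnn1* (adjusted p = 0.27 and 0.090).

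**Figure D5:**
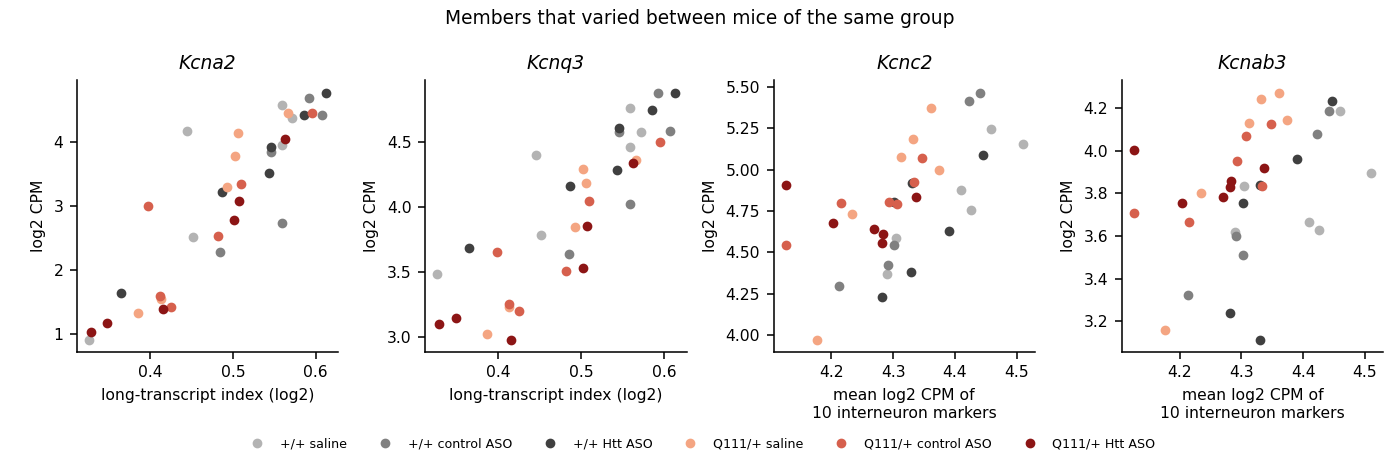
Log2 CPM of *Kcna2* and *Kcnq3* against the long-transcript index and of *Kcnc2* and *Kcnab3* against the mean log2 CPM of 10 striatal interneuron markers, 1 point per mouse, coloured by group. *Kcna2* and *Kcnq3* rise along the index in mice of every colour, with r = 0.90 and 0.88 after subtraction of group means, and the relation with interneuron markers is looser (0.74 and 0.67).

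A second set moved with interneuron markers. *Kcnc2* and *Kcnc1* encode fast delayed rectifiers of fast-spiking cells, and after subtraction of group means they correlated with the mean of 10 striatal interneuron genes with r = 0.74 and 0.70 over 35 mice, as did the auxiliary *Kcnab3* with r = 0.67 (permutation p = 1e-05, 2e-05 and 1e-05, adjusted p at most 3.17e-04 over the 222 relations; rho 0.72, 0.66 and 0.73, adjusted p at most 0.0012). Without the 2 mice farthest from the median these were 0.82, 0.65 and 0.75. At an adjusted permutation p under 0.05, 14 members had a positive r with these markers and 6 a negative r. *Kcnab1* (−0.66), *Kcnk2* (−0.63) and *Kcnip2* (−0.48) were among the negative ones. *Kcnab3* and *Kcnc2* followed the parvalbumin gene *Pvalb*, given as a description, with r = 0.94 and 0.88. By genotype 3 of the 10 interneuron markers (*Nos1*, *Th* and *Kit*) were lower, and *Kcnc2* gave a log2 fold change of 0.030 (95% confidence interval −0.21 to 0.27). *Kcnc1* gave −0.063 (adjusted p = 0.14), and without 1 *Htt*+/+ saline mouse −0.080 (adjusted p = 0.041).

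Another set moved with the 9 medium spiny neuron markers inside groups: *Kcnk2* (r = 0.78), *Kcnab1* (0.76), *Kcnip2* (0.75) and *Kcnj4* (0.69), each with an adjusted permutation p of at most 0.0011 over the 222 relations and rho of 0.80, 0.77, 0.77 and 0.66 (adjusted p at most 0.0022). Without the 2 farthest mice r was 0.81, 0.75, 0.78 and 0.63. The same 4 genes were among the 11 called under all 3 treatments, and *Kcng1*, which rose by genotype, also had a positive r of 0.63 with these markers inside groups. Others of the 11 varied: r was 0.57 for *Kcnh3*, 0.41 for *Kcnq5*, 0.20 for *Kcnh5*, 0.12 for *Kcna1* and −0.27 for *Kcnj3*. Of these only *Kcnh3* had an adjusted permutation p under 0.05. At an adjusted permutation p under 0.05, 12 members had a positive r with these markers and 10 a negative r. *Kcnc2* (−0.77), *Kcnj5* (−0.72), *Kcnd3* (−0.72), *Kcnab3* (−0.59) and *Kcnc1* (−0.55) were among those that moved opposite to the markers. The relations with interneuron and with medium spiny neuron markers thus share genes with opposite signs, and whether they are separate was not tested.

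Partner genes of the channels were called in both directions. Of 29 tested genes for auxiliary, clustering, pump, cotransporter and related channel proteins, 8 were higher and 9 lower in *Htt*Q111/+ mice, where 21.8% of all tested genes were higher and 18.0% lower. *Dpp10* and *Dpp6*, auxiliary subunits of the A-type Kcnd channels, rose, *Dpp10* from 82.8 ± 5.36 CPM (SD, n = 17) to 106 ± 5.47 (SD, n = 18; log2 fold change 0.35, SE 0.027, limma adjusted p = 1.352e-12) and *Dpp6* by 0.15 on the log2 scale (adjusted p = 3.51e-08). *Lrrc55*, an auxiliary subunit of *Kcnma1* channels, rose from 11.2 ± 1.23 CPM (SD, n = 17) to 15.8 ± 1.34 (SD, n = 18; log2 fold change 0.49, SE 0.044, adjusted p = 4.53e-11), while *Kcnma1* itself did not pass the test. *Dlg1* and *Lgi1* also rose. The scaffold genes *Dlg2* and *Dlg4*, which cluster channels at synapses and axons, gave −0.24 (adjusted p = 4.523e-09) and −0.19 (adjusted p = 3.102e-05). The sulfonylurea receptors *Abcc8* (−0.17, adjusted p = 3.102e-04) and *Abcc9* (−0.25, adjusted p = 8.74e-07), regulatory subunits of ATP-sensitive channels, were lower while their pore gene *Kcnj11* did not pass the test. Of 10 endothelial and mural markers 8 were lower, *Abcc9* among them, and their part in that difference was not tested.

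Among sodium-potassium pump genes *Atp1b1* rose by 0.15 on the log2 scale, and *Atp1b2*, *Atp1b3* and the cotransporter *Slc12a7* were lower. Of the 4 hyperpolarization-activated channel genes *Hcn3* rose (0.37, SE 0.048, adjusted p = 1.284e-07). Treatment called 0 partner genes in each of the 3 comparisons averaged over genotype.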

How the data were processed

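Libraries were made with a TruSeq Stranded mRNA kit. Per the methods and the submitters' processing notes, the authors used Bowtie 0.12.9 for alignment, RSEM 1.1.18 for quantification and the build MGSCv37 (mm9). The deposited values are expected counts, 55.6% of them whole. The strand setting of counting is not given in the sources used here, and exons of 23 of 74 members overlap another annotated gene (GENCODE M21), among them *Kcnab1*, *Kcnh3*, *Kcnh7*, *Kcnj3*, *Kcnj9*, *Kcnk2*, *Kcnip4*, *Kcnn1* and *Kcnq5*. The overlaps differ in size: the largest was 1 base for *Kcnh3*, 83 for *Kcnab1*, 696 for *Kcnh7* and 1080 for *Kcnj3*. Genes were tested in R 4.3.3 with edgeR 4.0.16 (filterByExpr, minimum count 10, minimum total 15; TMM) and limma 3.58.1 after voom, with a mean for each of the 6 groups, 29 residual degrees of freedom, and Benjamini-Hochberg adjustment over 17639 tested genes at 0.05. DESeq2 1.42.0 and edgeR's test used counts rounded to whole numbers. Log2 CPM used a prior count of 2. The code was tested on simulated data. Lengths and positions came from another build, GRCm38 (GENCODE M21). The label ASO1 was read as *Htt* ASO.

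The members and the marker and partner lists were chosen with earlier results of these data known. Values were given for 38 of 74 members: the 10 largest called changes each way with 1 sign under all treatments, a list of 17 well-known channels, the highest member per kilobase of each subfamily, and the 3 smallest p-values of each treatment comparison; a few others were added after their values were seen. Labels give separate mice as replicates. In 85 pairs of mice within groups the chi-square per degree of freedom was 3.57 to 16.5, so no library was a duplicate. Beside the medium spiny neuron genes, markers were tested as lists of 10 interneuron, 7 cortical, 10 astrocyte, 7 oligodendrocyte, 5 oligodendrocyte precursor, 10 microglial, 10 endothelial and mural and 5 choroid plexus genes. Of these 3, 1, 3, 3, 1, 6, 8 and 1 were lower in *Htt*Q111/+ mice, and 1 astrocyte gene was higher, where 18.0% of all tested genes were lower and 21.8% higher. Listed genes that were not tested are not analysed here. A few genes counted in the totals are not reported here by name or drawn in the figures.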

Additional observations from a re-analysis of the deposited data

Results flagged for a closer look

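In 12 of 228 combinations of a named member and a group (5.26%), 1 mouse stood apart from the others by Dixon's criterion at the 95% level, which chance alone gives in about 1 of 20. In *Htt*+/+ mice on saline these were a high *Kcng1* of 17.02 CPM (next 15.01) and a low *Kcnv1* of 47.3 CPM (next 59.0). On control ASO a *Htt*+/+ mouse had a low *Kcnk6* of 6.41 CPM (next 6.77). On *Htt* ASO the *Htt*+/+ mouse sampled on the left side had both a low *Kcnn3* of 6.83 CPM (next 10.9) and a high *Kcnmb2* of 1.52 CPM (next 0.92), and another had a high *Kcnj2* of 68.3 CPM (next 57.5).

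In *Htt*Q111/+ mice on saline, separate mice had a high *Kcnh8* of 1.22 CPM (next 0.67) and a low *Kcnip4* of 32.4 CPM (next 38.1). On control ASO 1 had a high *Kcnma1* of 36.5 CPM (next 26.9). On *Htt* ASO separate mice had a high *Kcnh8* of 1.05 CPM (next 0.67), a high *Kcnd2* of 204.5 CPM (next 192.5) and a low *Kcna5* of 26.8 CPM (next 32.0). No named member had an adjusted p under 0.05 for an interaction of genotype and treatment in limma.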

How the results depend on the processing

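The count of 35 members called by genotype stayed between 30 and 38 under the alternatives tried, all within 1.5 times of it: 36 with edgeR's quasi-likelihood test and with DESeq2, 33 with library totals, 32 with lane as a covariate and 30 without the mice of lane 7. Of the 35, edgeR and DESeq2 also called all 35, and the fits with library totals, lane and without lane 7 called 30, 30 and 29 of them. Leaving out each mouse in turn gave 32 to 38. On saline, control ASO and *Htt* ASO the leave-one-out ranges were 17 to 21, 13 to 17 and 17 to 21. The 13 treatment and interaction comparisons called 0 members under every alternative, with 1 exception: lane as a covariate called 1 member for *Htt* ASO against saline in *Htt*Q111/+ mice, and the cause was not tested. Over 1925 refits of single named members by genotype, 1888 kept their side of the threshold, 31 lost it, 6 gained it and 0 of the called members changed direction. No paired analysis was possible because the labels give no replicate numbers that pair mice across groups. The widest interval by genotype was that of *Kcna2*, which varied most between mice of a group.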

Other observations

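Of the 13 Kcn genes under the minimum, 5 passed the filter on low counts, and limma called 0 of them by genotype. *Kcnrg* came nearest, with a log2 fold change of 0.54 and an adjusted p of 0.063 at a mean of 0.28 CPM, and *Kcne2*, at 0.44 CPM, gave −0.41 with an adjusted p of 0.48. The choroid plexus and ependymal markers summed to 26.7 to 131 CPM in *Htt*Q111/+ mice and 33.8 to 1545 CPM in *Htt*+/+ mice.

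Pairs of neighbouring members did not always move together. *Kcnj9* and *Kcnj10* lie 11891 bases apart on chromosome 1 (GRCm38), and *Kcnj9* rose by 0.13 on the log2 scale while *Kcnj10* fell by 0.099. *Kcna5* and *Kcna1* both fell, and *Kcna6* beside them gave 0.010 (adjusted p = 0.84). *Kcnj16* and *Kcnj2*, 38195 bases apart on chromosome 11, gave −0.029 and −0.0021.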
